A study of Mus musculus with 6 samples.

Results

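miR-367-3p is the 3p strand of a microRNA that mouse embryonic carcinoma cells make together with the miR-302 strands from one primary transcript. Its hybrids were taken as every row of the hybrid table whose miRNA field read mmu-miR-367-3p, and reads were summed per library and target gene. They comprised 2277 of 15680 hybrid reads (14.5%), 2057 of 15159 distinct library sequences and 563 of 3200 target genes, while 298 miRNAs were listed in all.

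The hybrids came from AGO2-CLASH, in which Argonaute 2 is crosslinked to its RNA, each miRNA is ligated to the target piece it was paired with, and the joined molecule is sequenced. All samples were P19 cells, a mouse teratocarcinoma line of the embryonic carcinoma type. The 3 wild-type (WT) libraries had the genotype Dicer (+/+). The 3 HM libraries had the genotype Dicer (HM/-), with a frameshift in one Dicer1 allele and a missense change in the RNase IIIb domain of the remaining one, in a clonal line in which a chromosome 12 miRNA cluster was also silent. Both genotypes went through the same AGO2-CLASH procedure, and the labels name no other treatment. Libraries held 1621 to 5341 hybrids, of which 701 to 1091 in WT and 1585 to 5113 in HM carried a 3p miRNA. The labels call the libraries biological replicates without naming separate cultures, so p-values measure the spread between these libraries, which may be partly technical.

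A microRNA guides Argonaute to messenger RNAs mainly through its seed, bases 2 to 8 from the 5′ end, and pairing of its 3′ part can add to this. Dicer's RNase IIIb domain cuts the 5p arm of the precursor hairpin and the RNase IIIa domain the 3p arm, so RNase IIIb mutants lose 5p strands and keep 3p strands. The cluster of miR-302 and miR-367 is a hallmark of pluripotent cells, and the seed of miR-367-3p is shared with miR-25-3p, miR-92a-3p, miR-92b-3p, miR-363-3p and miR-32-5p.

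In RefSeq's annotation of GRCm38.p6, mature miR-367-3p lies on the plus strand at chr3:127545779-127545800, inside the Mir367 hairpin at chr3:127545733-127545807. The hairpin lies within the spans of the protein-coding gene Larp7 and the lncRNA gene Gm51018, downstream of Mir302b, Mir302c, Mir302a and Mir302d. The mature sequences of the seed family from the same source are shown because the target spectra are compared between them below, with bases 2 to 8 in capitals.
miR-367-3p: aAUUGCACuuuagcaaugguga
miR-92a-3p: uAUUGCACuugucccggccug
miR-25-3p: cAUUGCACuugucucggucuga
miR-363-3p: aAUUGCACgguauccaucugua
miR-92b-3p: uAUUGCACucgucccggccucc
miR-32-5p: uAUUGCACauuacuaaguugca
From base 9 on, the first of these shares 5 positions with miR-92a-3p, 5 with miR-25-3p, 6 with miR-363-3p, 3 with miR-92b-3p and 6 with miR-32-5p.

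The fragments most often ligated to miR-367-3p are shown next, because they carry most of the recurrent signal. For 7 of the 8 genes with the most reads and for Klhl11, the sequence is the most frequent target fragment of its main site, from a 3′ UTR and written as DNA, with the bases that match the seed in capitals. An 8mer is a match to bases 2 to 8 followed by an A, a 7mer-m8 lacks the A, a 7mer-A1 matches bases 2 to 7 with the A, and a 6mer matches bases 2 to 7 alone.
Rabggtb: agatgctgtagtGTGCAATAtga
Lifr: cggttatgatGTGCAATAcct
Ddx3x: atttcctaaaGTGCAATAgat
Srpr: gatgtgctactaGTGCAATAaggt
Slc25a32: gagaagctcattTGCAATAttt
Pgam1: aggagtgatGTGCAATActt
Ube2w: ctcgtgtattGTGCAATAaca
Klhl11: gagagacgtGTGCAATAgtg
Of these 8 fragments, 7 held an 8mer and the Slc25a32 fragment held a 7mer-A1.

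The cells carried the miRNAs of pluripotent cells. All 11 miRNAs of the pluripotent list (the 3p strands of the miR-302 cluster, which holds miR-367, and of the miR-290 cluster) had hybrids, summing to 461 to 727 reads in WT libraries and 953 to 3031 in HM libraries. These sums include miR-367-3p itself, with 126 to 249 reads in WT and 273 to 914 in HM. Apart from it, miR-302b-3p had 130 to 192 reads in WT and 359 to 1060 in HM. miR-290a-3p had 1 read, in HM library 1. Of 7 miRNAs that mark muscle, liver, neurons or blood, miR-9-5p had 1 read in WT library 3, and miR-1a-3p, miR-133a-3p, miR-122-5p, miR-124-3p, miR-142a-3p and miR-223-3p were at 0 in all libraries. miR-9-5p and miR-122-5p are 5p strands, which RNase IIIb mutants lose, so their HM counts are uninformative.

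miR-367-3p was the second most frequent 3p miRNA after miR-302b-3p (2467 reads). WT libraries 1, 2 and 3 held 195, 249 and 126 of its reads, and HM libraries 1, 2 and 3 held 273, 914 and 520. No hybrid of its partner strand miR-367-5p was listed in any library.

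The share of 3p hybrids held by miR-367-3p overlapped between genotypes. It was 21.3% (95% Wilson interval 18.8 to 24.1), 22.8% (20.4 to 25.4) and 18% (15.3 to 21) in the WT libraries. In the HM libraries it was 17.2% (15.4 to 19.2), 17.9% (16.85 to 19) and 19.5% (18 to 21). These intervals cover counting error only, since reads amplified by PCR are not independent molecules. The WT and HM ranges overlapped, and the means were 20.7% ± 2.5 and 18.2% ± 1.2 (SD, n = 3 each), a difference of -2.50 percentage points (two-sided exact permutation p = 0.20, where the smallest p possible with 3 against 3 is 0.10). Without the miR-302 3p strands in the denominator the means were 34.1% and 28.8%, a difference of -5.27 points (exact permutation p = 0.10). A share of hybrids does not tell how much of the miRNA a cell held, and in these bulk libraries fewer cells with a hybrid and fewer hybrids per cell cannot be told apart.

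As a share of all hybrids, 5p hybrids included, the order turned. The values were 10.1%, 10.7% and 7.77% in WT and 16.4%, 17.1% and 18.6% in HM, with no overlap (exact permutation p = 0.10). In the edgeR fit over 94 miRNAs of both arms scaled to 3p totals, 56 miRNAs (59.6%) passed an adjusted p of 0.05. Of the 58 3p miRNAs in that fit, 24 (41.4%) passed. miR-367-3p did not (log2 fold change of HM over WT -0.20, SE 0.11, adjusted p = 0.10). The sign depended on the scaling: it was +0.22 with TMM over 3p miRNAs (adjusted p = 0.076) and +0.86 with totals of all hybrids (adjusted p = 1.62e-14). Those scalings moved the median log2 fold change of the 58 tested 3p miRNAs from 0.20 to 0.59 and 1.20, so miR-367-3p lay below the 3p median under each.

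**Figure D1:**
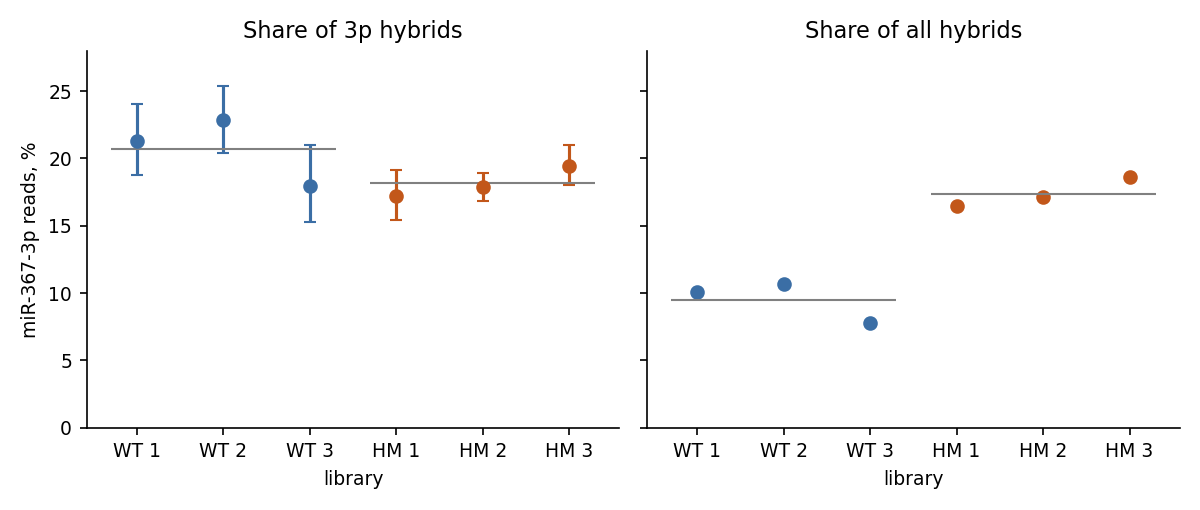
Share of hybrid reads held by miR-367-3p in each library (y axis, percent), out of 3p hybrids on the left and out of all hybrids on the right; points are libraries, blue for WT and orange for HM, bars on the left are 95% Wilson intervals and grey lines are genotype means. On the left the genotypes overlap around means of 20.7% and 18.2%, and on the right all HM libraries lie above all WT libraries.

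Among the 18 3p miRNAs with at least 100 reads, those whose shares of 3p hybrids tracked miR-367-3p most closely over the 6 libraries were miR-294-3p (Pearson r = 0.93), miR-291a-3p (r = 0.83) and miR-27b-3p (r = 0.78). The first 2 come from the miR-290 cluster of pluripotent cells, of which miR-292a-3p, with more reads, had an r of -0.49. Of the cluster mates of miR-367-3p, miR-302c-3p (r = 0.68), miR-302d-3p (r = 0.48) and miR-302a-3p (r = 0.46) had positive values. miR-302b-3p had a negative one (r = -0.74), with 14.2% to 19.8% of 3p hybrids in WT and 20.7% to 22.6% in HM. These shares have a common denominator and are given as a description.

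The target spectrum was led by 1 gene and had a long tail. Rabggtb, which encodes the beta subunit of the geranylgeranyl transferase that attaches lipid anchors to Rab proteins, took 342 reads, 15% of all miR-367-3p reads. The 3 WT libraries gave 34, 31 and 14 of them, and the 3 HM libraries 37, 151 and 75. As a share of the library's miR-367-3p reads this was 17.4%, 12.4% and 11.1% in WT and 13.6%, 16.5% and 14.4% in HM, so it was the leading target in both genotypes. All 342 reads fell on a single site, read as 122 distinct fragment sequences, and 341 of them held the seed match.

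Lifr, a receptor subunit for leukaemia inhibitory factor, which maintains mouse pluripotent cells, was next with 67 reads (4, 9 and 4 in WT, 9, 23 and 18 in HM). For Ddx3x, an RNA helicase, the WT counts were 5, 6 and 0 and the HM counts 6, 24 and 8. Both Lifr and Ddx3x were read in at least 5 libraries, and for each a single 8mer site gave most reads (58 of 67 and 41 of 49).

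Srpr, a subunit of the receptor for the signal recognition particle, gave WT counts of 9, 6 and 0 and HM counts of 6, 16 and 11. For Slc25a32, a mitochondrial carrier, they were 3, 8 and 4 against 3, 17 and 9. Pgam1, a glycolytic enzyme, had 35 reads over 6 libraries. Ddx3x and Srpr were thus missing from WT library 3, the smallest library, and the others were read in all 6. Others of the top 20 genes had 15 to 31 reads: Ube2w, Klhl11, Gatad2b, Fndc3b, Dab2ip, Exoc5, Atp7a, Xylt2, Skil, Rlim, Trib1, Col1a2 and Gtf2a1. The top 20 genes together held 40.0% of the reads.

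**Figure D2:**
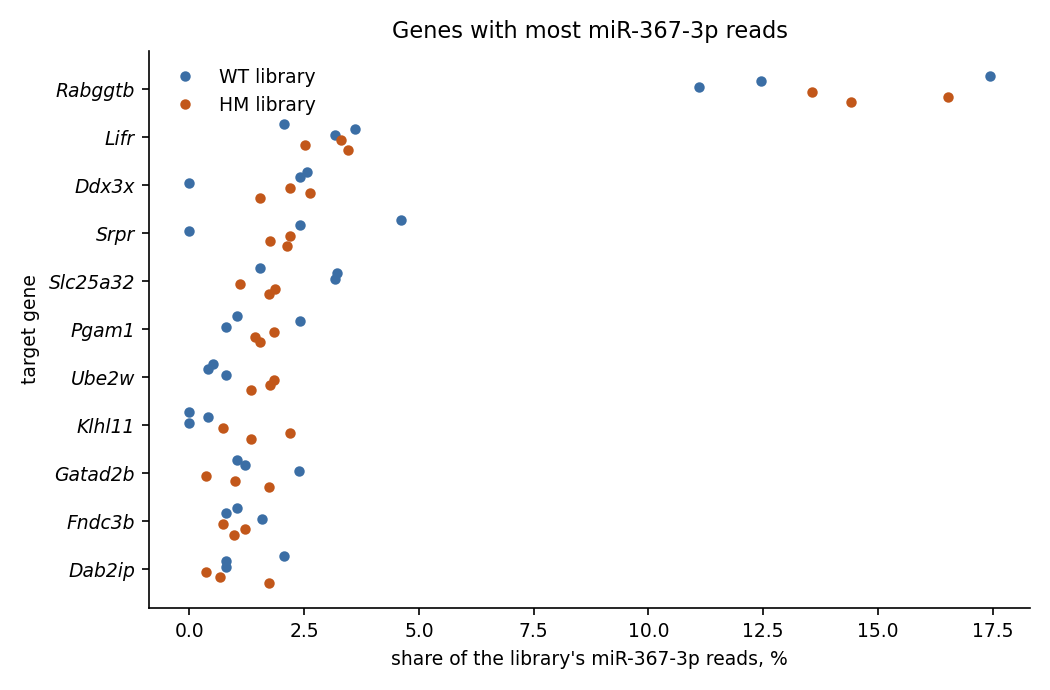
Share of each library's miR-367-3p reads (x axis, percent) for 11 of the 12 genes with the most reads (y axis); each point is 1 library, blue for WT and orange for HM. Rabggtb lies between 11.1% and 17.4% in all 6 libraries, far to the right of Lifr, and Klhl11 and Ube2w are the genes shown whose WT and HM points do not overlap.

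Some genes were reached mainly through miR-367-3p and others were shared with many miRNAs. Of all 3p hybrid reads on Rabggtb, 90% were of miR-367-3p, against 89.8% on Slc25a32, 88.2% on Klhl11 and Col1a2, and 85.7% on Srpr. The share was 51.1% on Lifr, 23.2% on Rlim, an X-linked ubiquitin ligase, and 10.6% on Atp7a, a copper-transporting ATPase.

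Most target genes were seen once. There were 285 genes with a single read and 324 in a single library, against 34 genes in at least 5 libraries, which held 45.5% of reads. When fragments of a gene that share a run of 12 bases were joined into sites, 903 sites resulted. Of these, 716 were read in 1 library, and 27 were read in at least 5, among which 11 were read in all 6. Among them were sites in Rabggtb, Lifr, Srpr, Slc25a32, Ddx3x, Pgam1, Ube2w, Fndc3b, Exoc5, Xylt2, Atp7a, Col1a2, Gatad2b and Gtf2a1, with 15 to 342 reads on the site, and in Itgb1, Tagap, Fnip1, Phtf2, E2f3, Eif4g2, Hnrnpa3, Dcp1a, Gosr2, Tob2, Dnajb12 and Bsdc1, each with 7 to 14 reads on the site.

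WT libraries together reached 241 genes and HM libraries 481. The 159 genes in both were 66.0% of the WT genes and 33.1% of the HM genes, and held 72.2% of the reads. HM libraries were deeper, and at an equal depth of 126 reads the expected number of different genes was 80.5, 81.1 and 85.0 in WT and 87.1, 83.0 and 80.8 in HM. These ranges overlapped (means 82.2 ± 2.5 and 83.7 ± 3.2, SD, n = 3 each, two-sided exact permutation p = 0.60).

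Between genotypes, 1 of the 40 miR-367-3p-gene pairs that could be tested passed the threshold. The edgeR fit took all 140 miRNA-gene pairs with at least 10 reads, whatever the arm of the miRNA, and called 22 (15.7%). Of the 140 pairs, 3 (2.14%) were called as higher in HM. The 523 other genes of miR-367-3p, with 1132 reads, lay below that minimum. The called pair was with Klhl11, an adaptor that brings substrates to CUL3 ubiquitin ligases. The WT libraries gave 0, 1 and 0 reads of it, and the HM libraries 2, 20 and 7. Per 1000 3p hybrids this was 0 to 0.917 in WT and 1.26 to 3.91 in HM, with no overlap. The ratio of pooled rates was 8.38, with an exact 95% counting interval of 1.39 to 342, because WT held a single read (edgeR adjusted p = 0.047). The adjusted p was between 0.054 and 0.32 when any 1 of the 6 libraries was left out, so the call rested on all of them.

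The other tested pairs gave no call. Ube2w, a ubiquitin-conjugating enzyme, had 1 read in each WT library and 5, 16 and 7 in HM, which was 0.917 to 1.43 and 2.62 to 3.16 per 1000 3p hybrids (edgeR adjusted p = 0.31). WT and HM values were separate for 3 of the 40 pairs (Klhl11, Ube2w and Suv420h1), while this held for 23.6% of all 140 pairs. Rabggtb had 19.97 to 37.1 reads per 1000 3p hybrids in WT and 23.3 to 29.5 in HM (log2 fold change -0.08, SE 0.36, adjusted p = 0.96). The median log2 fold change was -0.52 over the 40 pairs and -0.17 over all 140.

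The gene lists were met to different extents. Of the 3200 genes with any hybrid, 563 (17.6%) had a miR-367-3p read. Among known targets of the seed family, 18 of the 26 members with any hybrid had one, among them Hipk3 with 8 reads, and Dnajb9 and Rnf4 with 7 each. Hybrids were limited to interactions predicted from the seed, which favours this list, so its share cannot be set against that of all genes. Pluripotency factors had 2 of 13 members, and 67 of their 69 reads were on Lifr.

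Vesicle traffic genes had 16 of 55 members and 399 reads, of which Rabggtb held 342. Others of that list were Exoc5, an exocyst subunit, with 21 reads, Synj1 with 7, and Rab23 and Plekhm1 with 6 each. Chromatin regulators had 20 of 64 members and 58 reads, with Suv420h1 at 11, Baz2b and Ncoa3 at 6 and Kdm2a, Setd5 and Atrx at 5. TGF-beta, BMP and Nodal signalling had 7 of 26 members, with Skil, a repressor of SMAD proteins, at 18 and Smad7 at 5. Ubiquitin ligase subunits had 13 of 49, with Klhl11 at 30, Rnf4 at 7 and Fbxo28 at 5. Klhl11 was the 1 member of any list that passed the test between genotypes.

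Most miR-367-3p reads had a fragment with a seed match. Over all libraries 45.1% of reads had an 8mer, 10.2% a 7mer-m8, 8.34% a 7mer-A1 and 1.45% a 6mer. Any of these was present in 63.6%, 62.7% and 71.4% of reads in the WT libraries, and in 65.6%, 65.9% and 63.7% in the HM libraries. The genotypes overlapped (65.9% ± 4.8 and 65.0% ± 1.2, SD, n = 3 each, two-sided exact permutation p = 1). Without Rabggtb the means were 60.7% in WT and 58.9% in HM. The seed match started late in the fragment, with a median of 12 bases before it and 5 after it.

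The same letters were rare in fragments ligated to unrelated miRNAs. In fragments of 3p miRNAs outside the seed family, TGCAAT, the 6-nt match to bases 2 to 7, was present in 0.802% to 1.81% of reads per library, against 62.7% to 71.4% for miR-367-3p (higher in 6 of 6 libraries, exact sign-flip p = 0.031, the smallest that 6 pairs allow, and 0.034 after adjustment over 12 such comparisons). The deposited hybrids had been limited to predicted interactions, and such predictions start from a seed match somewhere in the 3′ UTR, although not necessarily in the fragment. Fragments of the 3p seed family (miR-92a-3p, miR-25-3p, miR-363-3p and miR-92b-3p) held the match in 67.9% to 73.1% of reads, higher than for miR-367-3p in 6 of 6 libraries (means 70.6% ± 2.0 and 65.5% ± 3.2, SD, n = 6, exact sign-flip p = 0.031, adjusted 0.034).

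Recurrent sites were nearly all seed sites. A seed match was carried by most reads of 157 of the 716 sites read in 1 library (21.9%), 99 of the 160 read in 2 to 4 libraries (61.9%) and 26 of the 27 read in 5 or 6 (96.3%). The exception was the site in Gosr2, a Golgi SNARE. Sites read in more libraries also had more reads, so recurrence and depth move together here. Skil and Trib1 stood apart among the top 20 genes, since none of their 18 and 16 reads held a seed match and these spread over 6 sites each.

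**Figure D3:**
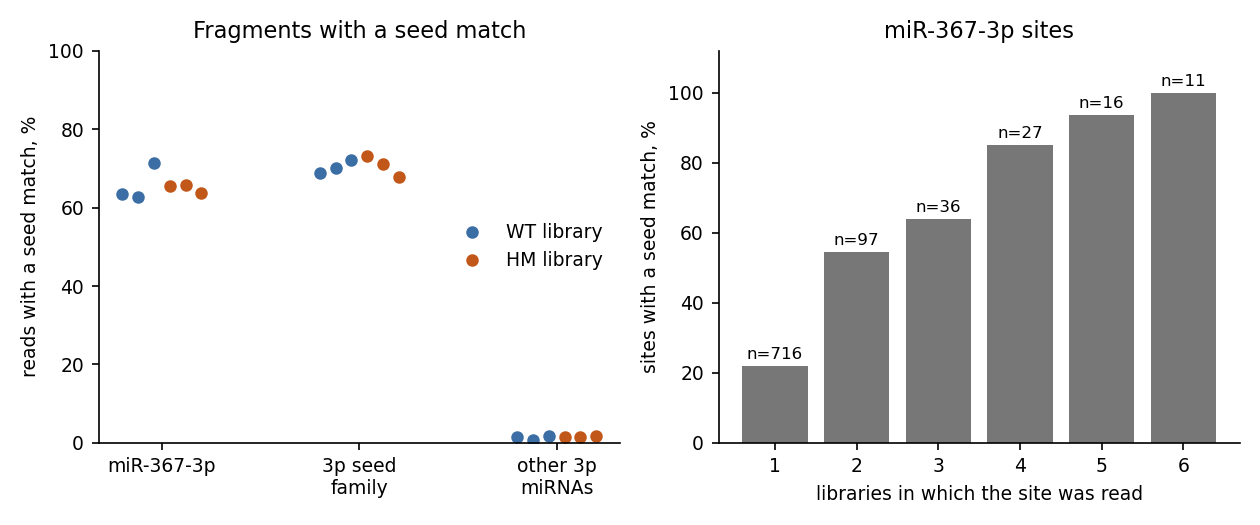
Left, percent of reads whose target fragment matches bases 2 to 7 of the shared seed (y axis) for miR-367-3p, its 3p seed family and all other 3p miRNAs, 1 point per library, blue for WT and orange for HM. Right, percent of miR-367-3p sites with a seed match (y axis) by the number of libraries in which the site was read, with the number of sites above each bar, rising from 21.9% for sites in 1 library to 100% for the 11 sites in all 6.

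The 795 reads without a seed match were not all alike. A match to bases 3 to 8 alone (GTGCAA) was found in 6.67% ± 2.75 of them per library (SD, n = 6), against 0.194% ± 0.122 of fragments of unrelated 3p miRNAs. A seed with a G:U pair was found in 4.46% ± 2.13 against 0.592% ± 0.155, and a seed with 1 extra target base in 4.50% ± 3.20 against 0.421% ± 0.189. Each was higher in 6 of 6 libraries (exact sign-flip p = 0.031, adjusted 0.047 over 6 classes). These classes held 62, 29 and 31 reads over all libraries, so the values per library rest on few reads. A site read in several libraries counts in each, such as that in Gosr2, whose main fragment matched bases 3 to 8. Seeds with 1 mismatch (5.01% against 4.18%, p = 0.44) and runs of 7 pairs to bases 9 to 22 (0.638% against 0.889%, p = 0.63) gave no difference past the threshold by the same exact test. The remaining 78.7% ± 4.9 fell in none of these classes.

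Predicted pairing was stronger than for unrelated fragments. Mean RNAduplex energy with miR-367-3p was -10.6 ± 0.2 kcal/mol for its own fragments and -7.36 ± 0.11 for fragments of 3p miRNAs outside the family (SD, n = 6). For fragments without a seed match it was -8.20 ± 0.39 and -7.33 ± 0.11. Both differences had the same sign in 6 of 6 libraries (exact sign-flip p = 0.031, adjusted 0.034). Fragments without a seed match include the classes with partial seed pairing above, several of which were more frequent for miR-367-3p. Fragment lengths were not equalised.

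The miRNA end of the hybrids was mostly intact. Bases 1 to 8 opened 88.8% of reads, and 8.92% began at base 2. Starts at base 2 made up 4.82% to 7.94% in WT and 8.79% to 10.2% in HM, with no overlap (6.65% ± 1.63 and 9.53% ± 0.70, SD, n = 3 each, exact permutation p = 0.10, the smallest possible). The full 3′ end at base 22 was present in 77.6% of reads, and 13.4% ended at base 20.

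miR-367-3p and its seed family shared many genes but held different shares on some of them. The 3p seed family had 1002 reads on 299 genes, and 217 of these were also reached by miR-367-3p, which was 72.6% of the family's genes and 38.5% of those of miR-367-3p, against 17.6% of all genes with a hybrid reached by miR-367-3p and 9.34% reached by the family. The shared genes held 71.2% of miR-367-3p reads. Hybrids had been limited to predicted interactions, which start from the seed, so miRNAs with the same seed were open to much the same genes. The overlap was partly set by that limit and cannot be read against the shares of all genes. In an edgeR fit of reads per gene against each miRNA's own total, with the library as a block, 23 of 62 genes (37.1%) differed between miR-367-3p and the pooled family at an adjusted p of 0.05. Of these, 14 (22.6%) held a larger share of miR-367-3p and 9 (14.5%) a larger share of the family. The minimum of 10 reads was taken over both sides, so genes without a read on one side entered through the other alone. Skil, Gtf2a1, Tada2b, Sik1, Eif4g2, Necap1, Sertad3 and Gps1 entered in this way, and all of them were called. Among the called genes, Tgif1, Camk2n1, Slc25a32, Ube2w, Klhl11, Exoc5 and Trib1 had 1 or 2 reads on one side. The other side alone took them past the minimum, as it did for some genes that were not called. This comparison and the genes named from it were chosen after the values were seen.

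The genes on the side of miR-367-3p were led by Rabggtb, whose family reads numbered 3, 1 and 1 in the WT libraries and 8, 16 and 9 in the HM libraries. It held 15% of miR-367-3p reads and 3.79% of family reads (log2 ratio 1.98, SE 0.20, edgeR adjusted p = 4.38e-19, higher in 6 of 6 libraries). Lifr had 67 reads against 6 (log2 ratio 2.20, SE 0.46, adjusted p = 3.01e-05, higher in 5 of 6 libraries). Srpr had 48 against 8 (log2 ratio 1.35, SE 0.46, adjusted p = 0.016), and this call was lost without WT replicate 1, without HM replicate 3 and with no minimum of reads.

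Other genes on that side had few or no family reads. For Slc25a32, with 44 reads against 2, the ratio of shares was 9.68 (exact 95% counting interval 2.53 to 82.4). For Ube2w it was 13.6 (2.27 to 556, 31 reads against 1) and for Klhl11 6.60 (1.67 to 57.0, 30 against 2), and both of these calls were lost without HM replicate 2, which held most of their reads. Skil, with 18 reads, and Gtf2a1, a subunit of the general transcription factor TFIIA, with 15, had no family read, so their shares were at least 2.64-fold and 2.20-fold higher for miR-367-3p when 3 reads over the 6 libraries are taken as the floor. With the counting error of both sides, the exact 95% lower limits were 1.93 and 1.58. Both calls were lost without WT replicate 1 and against miR-92a-3p alone, and that of Gtf2a1 also with no minimum of reads.

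On the family's side, Atp7a gave 19, 19 and 11 family reads in the WT libraries, where miR-367-3p had 4, 4 and 1. In the HM libraries it gave 8, 51 and 24 family reads, where miR-367-3p had 2, 5 and 4. It held 13.2% of family reads and 0.878% of those of miR-367-3p (log2 ratio -3.85, SE 0.25, edgeR adjusted p = 9.43e-38, lower in 6 of 6 libraries). Tacc2, a centrosomal protein gene, had 56 family reads against 8 (log2 ratio -3.82, SE 0.39, adjusted p = 8.77e-19). Sertad3 and Gps1, a subunit of the COP9 signalosome, had 43 and 34 family reads and none of miR-367-3p, so their shares were at least 32.6-fold and 25.8-fold higher in the family by the same floor, with exact 95% lower limits of 25.4 and 19.8. Tgif1, a TGF-beta corepressor, had 31 family reads against 2 (ratio of shares 35.2, exact 95% counting interval 8.96 to 304). Camk2n1, an inhibitor of CaM kinase II, had 22 against 1 (50, 8.08 to 2063), all of them in HM libraries.

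Of the 23 genes, 9 were called in all 13 settings that were run, including each library left out and miR-92a-3p alone as the reference. They were Atp7a, Sertad3, Rabggtb, Tacc2, Gps1, Tgif1, Camk2n1, Lifr and Slc25a32. All settings reused the same reads, so this is no independent support for genes picked from them.

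The pooled family was not uniform. Rabggtb held 21.8% of the reads of miR-363-3p (31 of 142), 2.26% of those of miR-25-3p (6 of 265) and 0.182% of those of miR-92a-3p (1 of 550). All 8 family reads on Srpr were of miR-363-3p, where the gene held 5.63% of reads, against 2.11% of miR-367-3p reads. Atp7a held 23.3% of miR-92a-3p reads and 0.377% of miR-25-3p reads, and had none of miR-363-3p. Tacc2 held 5.64% and 9.06% of miR-92a-3p and miR-25-3p reads, and Gps1 held 7.55% of miR-25-3p reads.

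**Figure D4:**
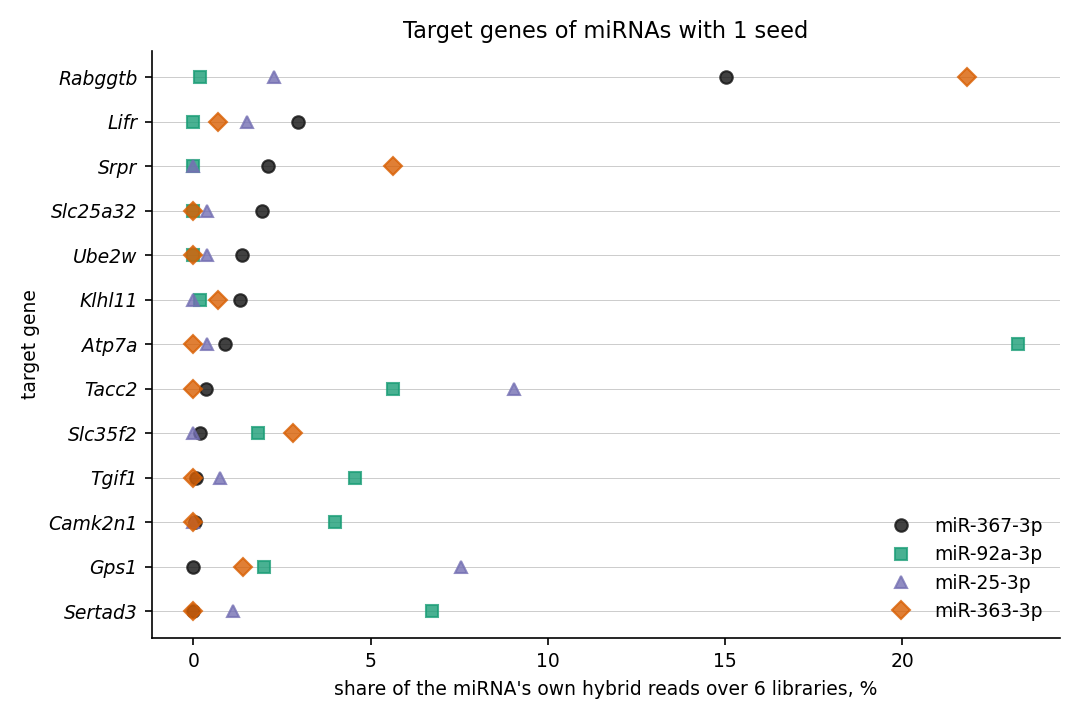
Share of each miRNA's own hybrid reads, pooled over 6 libraries (x axis, percent), that fell on each of 13 genes (y axis) for miR-367-3p (circles), miR-92a-3p (squares), miR-25-3p (triangles) and miR-363-3p (diamonds). Rabggtb and Srpr carry high shares for miR-367-3p and miR-363-3p, while Atp7a reaches 23.3% for miR-92a-3p against 0.878% for miR-367-3p.

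The main fragments on the family's side are shown for comparison with those of miR-367-3p above, trimmed to at most 30 bases, with the seed match in capitals where there is one.
Atp7a: caggagcgggcaactttGTGCAATAtttcg
Sertad3: taaccaggccggaccatGTGCAATAgggca
Tacc2: tggacttggccgttgcGTGCAATAcgagcg
Gps1: aaacagaccatGTGCAATtcccaggtaagg
Tgif1: attgccgggggtgatggcaagaga
Camk2n1: aagtcaggccgggagacagatgaggtggag
The seed match was thus as long at Atp7a, Sertad3 and Tacc2 as at Rabggtb, and the main Tgif1 and Camk2n1 fragments held none. With miR-367-3p and miR-92a-3p, RNAduplex gave -10.1 and -23.0 kcal/mol for the Atp7a window, -14.4 and -29.9 for Sertad3 and -9.4 and -25.0 for Camk2n1. Tacc2 (-20.0 and -20.4) and Gps1 (-12.5 and -11.0) showed no such gap between the pair, although the Gps1 window had -16.2 with miR-25-3p, which gave 20 of its 34 family reads. For the Rabggtb window the energies were -14.4 and -13.7, with -17.9 for miR-363-3p. Other genes on the side of miR-367-3p had windows that paired better with miR-92a-3p, among them Lifr (-11.4 and -15.1), Klhl11 (-9.4 and -15.3) and Sik1 (-9.4 and -18.4). In all, the energy was lower with miR-92a-3p for 8 of the 14 genes on the side of miR-367-3p and for 8 of the 9 on the family's side. Mean energy over all seed-matched fragments of miR-367-3p was also lower with miR-92a-3p (-13.3 against -11.9 kcal/mol). The energies of the pair thus have no common baseline.

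Over all fragments with a seed match (1482 reads of miR-367-3p and 352 of miR-92a-3p), those of miR-92a-3p paired better with their own miRNA. The energy with miR-92a-3p was -20.4 ± 0.7 kcal/mol for fragments of miR-92a-3p and -13.3 ± 0.3 for those of miR-367-3p (SD, n = 6). The energy with miR-367-3p was -12.5 ± 0.6 and -11.9 ± 0.5 for the same fragments, a difference that did not pass the test (5 of 6 libraries in the same direction, exact sign-flip p = 0.22). The gap between the energies, with miR-367-3p minus with miR-92a-3p, was 1.41 ± 0.40 for fragments of miR-367-3p and 7.90 ± 0.96 for fragments of miR-92a-3p, smaller in 6 of 6 libraries (exact sign-flip p = 0.031, adjusted 0.034). The difference of the gaps was -6.49 kcal/mol. With each gene counted once per library it was -2.64 (exact sign-flip p = 0.031), and without Rabggtb and Atp7a it was -3.07.

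**Figure D5:**
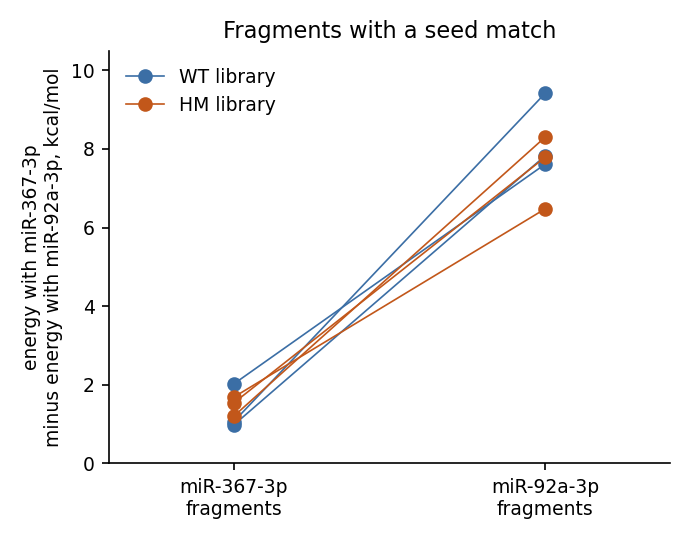
Difference between the duplex energy with miR-367-3p and with miR-92a-3p (y axis, kcal/mol, higher values mean stronger pairing with miR-92a-3p) for seed-matched fragments ligated to miR-367-3p and to miR-92a-3p; each line joins the read-weighted means of 1 library, blue for WT and orange for HM. All 6 lines rise, from a mean of 1.41 to a mean of 7.90.

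Letters matching bases 13 to 16, where added pairing outside the seed is best known, also differed between the pair. They were counted anywhere before the seed match, not only opposite those bases, and the length before it was not equalised. CGGG, the match to those bases of miR-92a-3p, stood before the seed match in 19.4% to 50% of miR-92a-3p reads and 1.21% to 2.22% of miR-367-3p reads (exact sign-flip p = 0.031, adjusted 0.034). TTGC, the match to those bases of miR-367-3p, stood before it in 0.806% to 3.35% of miR-367-3p reads, fewer than the 2.5% to 17.4% of miR-92a-3p reads in 6 of 6 libraries (p = 0.031, adjusted 0.034, same exact test). Counted once per gene and library, the means were 2.32% and 12.5% for CGGG, and 2.75% and 6.95% for TTGC, in miR-367-3p and miR-92a-3p fragments respectively. The Atp7a fragment shown above holds CGGG and the Tacc2 fragment holds TTGC. These genes had 128 and 31 miR-92a-3p reads, so single genes weigh heavily on these shares. The libraries read the same sites again, so the tests do not show a difference across many genes.

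Genes shared with the cluster mates were fewer. The 3p strands of miR-302a to d, which have another seed, had 4471 reads on 1113 genes, of which 168 also had miR-367-3p reads. These were 29.8% of the genes of miR-367-3p, against 34.8% of all genes with a hybrid, and 15.1% of those of the miR-302 strands, against 17.6%. The limit to predicted interactions differed by seed, so this overlap too was partly set by it.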

How the data were processed

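The hybrid reads are counts that the authors deposited as 1 row per library and hybrid sequence, with the miRNA, the target gene, the hybrid and the target fragment. Per the study's methods, QuagmiR named the miRNA and Bowtie2 placed the target on 3′ UTRs of mouse coding genes, after which hybrids were limited to interactions predicted by TargetScan. The genome build, the treatment of PCR duplicates and of targets mapping to several genes are not given in the sources used here. Of the 2057 miR-367-3p sequences, 94.3% had 1 read. No sequence was listed under more than 1 gene. The results of 1 gene are not reported here. Gene symbols were used as given: 525 of 563 matched RefSeq symbols, 21 matched synonyms, and 2 had turned into dates.

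The members and the gene lists were chosen with earlier results of these data known, and the lists were written from general knowledge. Named were the called pairs, the 20 genes with most reads, genes with a site in at least 5 libraries and list members with at least 5 reads. The comparison with the seed family, its alternatives and the genes named from it, all comparisons over the 6 libraries (seed matches and duplex energies against other miRNAs, classes of seedless fragments) and that of miRNA ends were added after their values were seen.

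Counts were tested with edgeR 4.0.16 quasi-likelihood fits in R 4.3.3, for features with at least 10 reads, scaled to the total of 3p hybrids, with Benjamini-Hochberg adjustment over all features tested, and with DESeq2 1.42.0 as an alternative. The standard error is the absolute log2 fold change over the square root of F. Shares were compared with two-sided exact permutation tests between genotypes and exact sign-flip tests over the 6 libraries, and duplex energies were computed with RNAduplex of ViennaRNA 2.7.2. Simulated counts with a known set of changed features were used to check the fits. With 126 to 914 miR-367-3p reads per library, 3 reads are 0.328% to 2.38% of them. Alternatives were other totals, TMM, other minimums, each distinct sequence counted once, a replicate block and each library left out. They are given in the closing section.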

Additional observations from a re-analysis of the deposited data

How the results depend on the processing

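With all hybrids as the denominator, the difference in the share of miR-367-3p (HM minus WT) turned from -2.50 to 7.86 percentage points, and leaving out each library gave -3.86 to -1.44. Without the miR-302 3p strands in the denominator this difference was -5.27 points (exact permutation p = 0.10). The log2 fold change of miR-367-3p, -0.20, turned to 0.86 with totals of all hybrids, 0.22 with TMM and 0.18 with DESeq2 (adjusted p = 0.18). It passed the threshold with each distinct sequence counted once (-0.26, adjusted p = 0.025) and without WT replicate 3 (-0.28, adjusted p = 0.037), the range without each library being -0.28 to -0.12 (adjusted p 0.037 to 0.51). The difference in genes at equal depth ranged from -0.26 to 2.90 without each library, and turned without HM replicate 1. The difference in seed-matched reads, -0.86 percentage points, became 1.75 with the 7-nt match, 0.33 with matches at bases 2 to 7 or 3 to 8 and 1.25 with fragments of at least 24 nt, and ranged from -2.48 to 1.91 without each library, turning without WT replicate 3. The single called pair became 4 pairs with totals of all hybrids (Klhl11, Rlim, Trib1 and Ube2w) and 0 with DESeq2, at least 30 reads, each distinct sequence counted once, scaling to miR-367-3p reads, the replicate block, or any library left out (0 to 0). At an unadjusted p under 0.05 the edgeR fit gave 2 pairs, Klhl11 and Col1a2. With no minimum the 1 pair called was Tmcc1, not Klhl11. The Rabggtb pair moved from -0.08 to 0.97 with totals of all hybrids, 0.52 with TMM, 0.21 with DESeq2, 0.15 with scaling to miR-367-3p reads and 0.15 without WT replicate 1 (-0.21 to 0.15 without each library). Of the 23 genes that differed from the seed family, 14 were called with at least 20 reads, where 22 genes were tested, and of the 14 called with no minimum 13 were among them. Leaving out each library gave 12 to 21, and 12 without WT replicate 1 or HM replicate 2 and 15 without HM replicate 1 or 3. The duplex energy gap ranged from -6.83 to -6.12 kcal/mol and the seed match difference from 62.8 to 64.4 percentage points without each library, where 5 pairs cannot give an exact p under 0.0625. The causes were not tested.

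The labels share replicate numbers between genotypes. Same-numbered libraries did not deviate together (r = 0.11, -0.05 and 0.08 over 94 miRNAs), so the numbers were not taken to pair them. With the replicate block the differences were -2.50 points in share (exact sign-flip p = 0.50), -0.86 points in seed matches, 1.47 genes at equal depth and a log2 fold change of -0.19 for miR-367-3p (adjusted p = 0.18). At 126 reads in the smallest library, a target under 2.38% of its miR-367-3p reads could be missed.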

Other observations

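Arhgef17 had 8 miR-367-3p reads, of which HM library 3 held 7. Tmcc1 ran the other way, giving WT counts of 2, 2 and 4 and HM counts of 1, 0 and 0. Both fell below the minimum of 10 reads and were picked after their values were seen.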
